A study of Sus scrofa with 189 samples.

Results

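The circadian clock genes of pig skeletal muscle were described in 189 animals. The 10 members, CLOCK, ARNTL, PER1, PER2, PER3, CRY1, CRY2, NR1D1, NR1D2 and DBP, were found by gene symbol among 12651 genes. Each symbol matched 1 gene, and the 19 listed transcripts of the 10 genes were summed per gene. All 10 members passed the filter on low values, a mean of at least 0.5 FPKM (fragments mapped, scaled for transcript length and library size), which 10717 genes passed.

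The animals were first-generation Duroc × Luchuan pigs, a cross of a lean Western breed with a Chinese breed, aged 210 days with a tolerance of 6 days. They shared diet, farm and abattoir, and 1 library of polyadenylated RNA was made per animal from the longissimus dorsi, a back muscle that runs along the spine. The labels set apart 4 kinds of animals: 10 with the title mark re-analyzed and high intramuscular fat (IMF, 4.83 to 6.84, unit not stated), 11 with the mark and low IMF (0.77 to 2.33), 25 without the mark and without an IMF value, and 143 without the mark and with an IMF of 1.19 to 5.61. The mark is not explained, and no label gives the clock time of slaughter, so that a phase in hours could not be assigned to any animal. What could be measured was whether the members were high or low together across animals.

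The molecular clock is a loop of transcription factors with a period of about a day. CLOCK and ARNTL (also called BMAL1) form the activator that switches on the period genes (PER1, PER2, PER3), the cryptochromes (CRY1, CRY2), the nuclear receptors NR1D1 and NR1D2 (REV-ERB alpha and beta) and the output factor DBP. PER and CRY proteins block the activator, and the NR1D proteins repress ARNTL transcription. In mammals ARNTL messenger RNA peaks at a time of day nearly opposite to those of DBP, NR1D1 and PER3. In skeletal muscle the clock is known for timing genes of fuel use and of protein turnover.

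The table holds no read counts, so the depth of the libraries is unknown and errors are the spread between animals. Summed FPKM lay between 364109 and 465105 per library, and 7803 to 10614 genes per library reached 1 FPKM. No 2 libraries were identical. Library 39 had the lowest median correlation with the other libraries (0.889, against 0.892 for the next one). It held the highest PER3 level of all animals, 5.14 FPKM. Summed fast fibre markers (6 genes) ranged from 25344 to 68833 FPKM and slow fibre markers (5 genes) from 636 to 7290 FPKM so that both fibre types of the labelled tissue were present. In whole muscle, fewer cells of a type and less RNA per cell cannot be told apart.

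Among the members the repressor receptors were the most abundant. NR1D2 averaged 21.7 ± 11.9 FPKM (SD, n = 189 here and for each member below), with a lowest value of 2.98, a median of 19.9 and a highest of 56.5 FPKM. NR1D1 averaged 17.7 ± 5.71 FPKM (lowest 6.19, median 16.2, highest 34.9). DBP, a PAR bZIP transcription factor whose transcription the activator drives directly, averaged 10.8 ± 12.8 FPKM. Its values ran from 0.483 FPKM over a median of 5.45 to 84.2 FPKM, a 174-fold range. On the log2(FPKM + 1) scale its SD of 1.33 was higher than in 99.6% of the tested genes.

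The level of CRY2 was 10.3 ± 3.28 FPKM (5.17 to 23.4, median 9.62), the narrowest range of the members at 4.53-fold. PER1, the period gene that also responds acutely to hormones and stimuli, had 9.78 ± 5.39 FPKM (2.2 to 38.5, median 8.63). The activators were lower. CLOCK had 4.57 ± 2.10 FPKM (0.890 to 9.88, median 4.26) and ARNTL 3.31 ± 1.41 FPKM (0.174 to 8.15, median 3.09). ARNTL was under 1 FPKM in 3 animals.

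CRY1 followed with 2.42 ± 1.06 FPKM (0.204 to 5.96, median 2.33). PER3 had 1.68 ± 1.07 FPKM (0.316 to 5.14, median 1.35) and PER2 1.23 ± 1.03 FPKM (0.114 to 4.52, median 0.831). PER2 was under 1 FPKM in 106 animals and PER3 in 80. Between neighbours in this order, the difference within an animal was larger than its own SD for NR1D1 over DBP (higher in 157 animals), PER1 over CLOCK (163 animals) and PER3 over PER2 (160 animals). The other neighbours did not differ beyond that spread. As a share of its own log2 range, the gap between neighbouring animals was widest for ARNTL, 17.4% with 3 animals below it, and next for PER1, 15.4% below its highest animal.

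**Figure D1:**
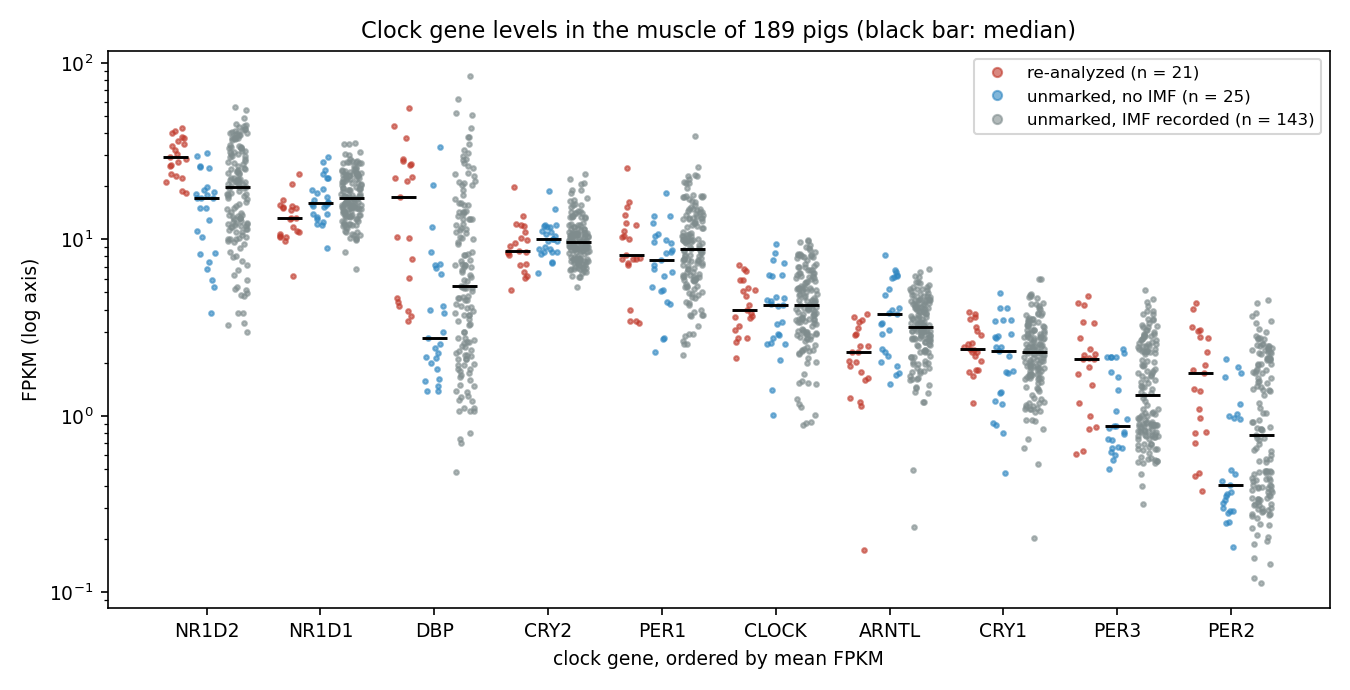
Levels of the 10 clock genes, in FPKM on a log axis, with 1 point per animal; red points are re-analyzed, blue points unmarked without IMF and grey points unmarked with IMF, and black bars are medians. DBP spans 0.483 to 84.2 FPKM, while CRY2 lies between 5.17 and 23.4 FPKM.

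Several members were listed as more than 1 transcript. The 3 ARNTL transcripts carried 44.1%, 32.5% and 23.5% of its summed level, and each was the highest one in some animals (70, 61 and 58). Reads of the same gene were thus split differently between animals, and the summed value was used. For NR1D2 1 transcript held 98.0% of the level. The 3 PER1 transcripts carried 51.9%, 31.7% and 16.4% of its level and differed in direction. In that order their r was -0.08, -0.12 and 0.22 with ARNTL, and 0.12, 0.24 and -0.33 with DBP.

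Some members share their locus with another gene, and whether strand was kept in counting is not given in the sources used here. NR1D1 (chromosome 12, 22263709 to 22275515 in Sscrofa11.1, plus strand) overlaps THRA, the thyroid hormone receptor alpha gene, on the opposite strand over 9417 bases, and the levels of both had r = 0.48. DBP (chromosome 6, 53986958 to 53993020, minus strand) overlaps CA11 on the same strand over 3129 bases, with r = 0.52. CLOCK (chromosome 8, 54788863 to 54910133, minus strand) overlaps TMEM165 over 2369 bases, with r = 0.63. THRA averaged 18.8 FPKM against 17.7 for NR1D1, CA11 0.883 against 10.8 for DBP, and TMEM165 1.88 against 4.57 for CLOCK. Reads from such partners cannot be told apart here.

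DBP, PER3, PER2 and NR1D1, all known targets of the activator, were lower in animals where ARNTL was higher. In the animal with the highest DBP, 84.2 FPKM, ARNTL was 2.01 FPKM, and in the animal with the lowest DBP, 0.483 FPKM, ARNTL was 5.34 FPKM. The highest ARNTL, 8.15 FPKM, stood beside 1.47 FPKM of DBP, and the lowest ARNTL, 0.174 FPKM, beside 27.9 FPKM of DBP. These 4 animals were chosen as the extremes of the 2 genes. Over all 189 animals DBP changed by -1.84 ± 0.14 (log2 units per log2 unit of ARNTL, ± SE), and limma gave an adjusted p of 5.00e-24 over all tested genes.

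The correlation of ARNTL with DBP was r = -0.68 (Spearman's rho -0.71) after the means of the 3 sets of libraries (re-analyzed, unmarked with IMF, unmarked without IMF) were removed. Its permutation p was 1e-05, the smallest that 100000 permutations within sets can give. Without the 2 animals farthest from the median of ARNTL it was -0.68. Within the sets it was -0.58 in the re-analyzed, -0.80 in the unmarked without IMF and -0.69 in the unmarked with IMF, and within title codes, groups of animals whose titles share their first 9 digits, it was -0.72 (n = 146). Of the 10716 other genes, DBP had the most negative r with ARNTL. PER3 came next and PER2 after it.

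PER3 changed by -0.71 ± 0.06 per log2 unit of ARNTL (limma adjusted p 7.09e-20, r = -0.64, rho = -0.65) and PER2 by -0.73 ± 0.07 (adjusted p 7.38e-16, r = -0.58, rho = -0.57). NR1D1 changed by -0.31 ± 0.06 (adjusted p 9.52e-06, r = -0.36, rho = -0.39), but with 3 principal components of the other genes as covariates it had -0.065 and did not pass. As given below, these components themselves followed some members, NR1D1 among them. Among the members only CRY1 was higher where ARNTL was higher by limma, at 0.45 ± 0.06 (adjusted p 7.30e-10, r = 0.47, rho = 0.47). Each of these 4 correlations had a permutation p of 1e-05, the smallest possible. In all, 5 of 9 other members passed the limma test on ARNTL, 1 higher and 4 lower, where 32.6% of all genes passed (23.3% higher and 9.36% lower). These were 2495 higher and 1003 lower genes, and 2262 higher and 2178 lower after quantile normalization.

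The other 4 members did not pass on ARNTL. CLOCK, its protein partner, had 0.21 ± 0.09 (SE, limma adjusted p 0.0577) and a slope of -0.06 after quantile normalization and -0.07 after a shift to equal medians. CRY2 had 0.11 ± 0.06, and -0.13 in the re-analyzed animals alone. PER1 had -0.06 ± 0.11 for the sum of its transcripts, whose r with ARNTL differed in sign as given above. NR1D2 had -0.29 ± 0.13 (adjusted p 0.0688), and it passed at -0.66 after quantile normalization.

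Over all 189 animals PER2, PER3, DBP, NR1D1 and NR1D2 were positively correlated with each other, weakly so for NR1D1 with NR1D2. PER2 and PER3 had r = 0.91 (rho 0.89), and each was the gene most like the other among 10716. PER3 and DBP had r = 0.83 (rho 0.83), PER2 and DBP 0.78 (rho 0.77), and NR1D1 and DBP 0.61 (rho 0.61). PER3 with NR1D1 (0.58), PER2 with NR1D1 (0.52), PER2 and PER3 with NR1D2 (0.57 each) and NR1D2 with DBP (0.48) had smaller r. These 9 correlations had a permutation p of 1e-05, and NR1D1 with NR1D2 had r = 0.18 (rho 0.20, permutation p 0.0126). The slope of NR1D2 on NR1D1 was 0.37 ± 0.14, and after a shift to equal medians it turned to -0.0194 and did not pass. In the principal component analysis of the members, the first component held 40.5% of their variance, with PER3, PER2, DBP, NR1D1 and NR1D2 at one end and ARNTL at the other.

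Of the 45 pairs of members, 24 passed limma in both fits, 18 in the same and 6 in opposite directions. Read against all genes, the share was high for some members and not for others. On NR1D1 6 of 9 other members passed, 4 higher and 2 lower, where 30.9% of all genes did (20.3% higher and 10.6% lower). On PER2 7 were higher and 1 lower (52.9% of all genes, 38.6% higher and 14.4% lower), and on PER3 6 higher and 1 lower (54.3%, 42.3% and 12.1%). On DBP 4 were higher and 2 lower (52.1%, 29.9% and 22.2%). On CLOCK 6 were higher and none lower, where 72.8% of all genes passed (53.1% higher and 19.7% lower). On NR1D2 7 were higher and 1 lower (73.7%, 50.8% and 22.9%), and on CRY1 3 higher and 3 lower (59.2%, 47.9% and 11.3%). PER1 had 2 higher and none lower (21.6%, 18% and 3.55%) and CRY2 1 higher and none lower (23.3%, 17.4% and 5.99%). All 24 kept their sign in the re-analyzed animals, in the unmarked animals with IMF and within title codes, and 20 kept it in the 25 unmarked animals without IMF.

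**Figure D2:**
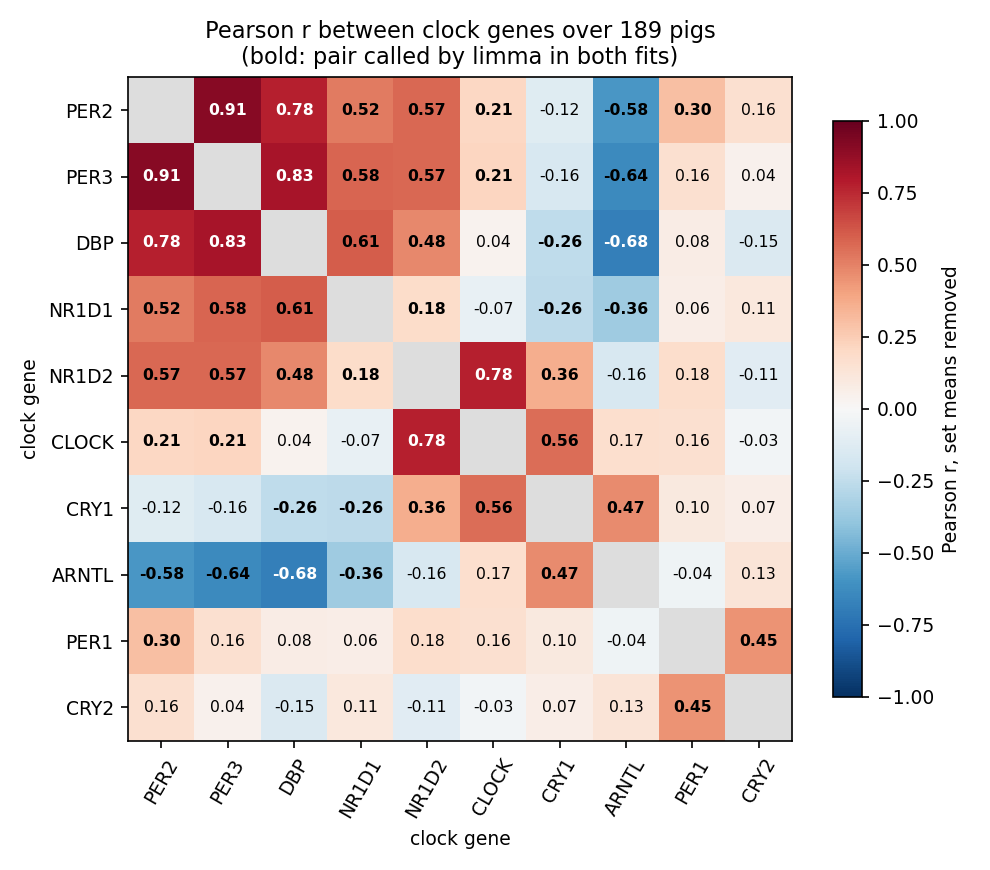
Pearson r between the members over 189 animals after removing set means, with bold numbers for the 24 pairs that passed limma in both fits. PER2, PER3, DBP, NR1D1 and NR1D2 form a red block, ARNTL is blue against PER2, PER3, DBP and NR1D1, and the highest r is 0.91 for PER2 with PER3.

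In the unmarked animals without IMF, NR1D2 with DBP had r = -0.02, against 0.53 in the unmarked animals with IMF. NR1D2 there also had low r with PER2 (0.15), PER3 (0.09) and NR1D1 (-0.03). In the unmarked animals with IMF these were 0.62, 0.63 and 0.20. The difference of the NR1D2 slope on DBP was -0.38 ± 0.15 (SE), and it did not pass limma over all genes (adjusted p 0.341).

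CLOCK, CRY1 and NR1D2 were correlated with each other. CLOCK with NR1D2 had r = 0.78 (rho 0.74), CLOCK with CRY1 0.56 (rho 0.53) and CRY1 with NR1D2 0.36 (rho 0.31). These 3 genes also followed the number of genes that reached 1 FPKM in a library, with r = 0.85 for CLOCK, 0.77 for NR1D2 and 0.51 for CRY1, against 0.13 for ARNTL, 0.11 for DBP and -0.01 for NR1D1. For PER3 this r was 0.32, for PER2 0.26, for PER1 0.18 and for CRY2 -0.03. The median slope of all genes on CLOCK was 0.11 and on CRY1 0.11 (log2 per log2), so that a slope of that size is that of the median gene. On CLOCK 5690 genes were higher and 2115 lower, and 3492 higher and 5063 lower after quantile normalization.

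With the number of genes reaching 1 FPKM taken out, r was 0.37 for CLOCK with NR1D2 and -0.06 for CRY1 with NR1D2. With 3 principal components of the other genes taken out, it was -0.02 and -0.01. These components, taken from all tested genes outside the members, themselves followed members. Component 1 had r = 0.88 with CLOCK and 0.88 with NR1D2. Component 2 had -0.68 with DBP and 0.48 with ARNTL. Component 3 had -0.67 with PER3, -0.56 with PER2, -0.52 with DBP and -0.52 with NR1D1. Taking them out thus also removes variation that these members share with other genes. The pairs of CLOCK with PER2 and PER3, which passed at r = 0.21 each, had r = -0.02 and -0.12 with the first correction and -0.15 and -0.23 with the second. With the same corrections r was -0.71 and -0.51 for ARNTL with DBP and 0.90 and 0.80 for PER2 with PER3. For ARNTL with NR1D1 it was -0.36 and -0.07, and the call was lost with the second. Of the 24 pairs, 15 passed in all of 10 alternatives (all but the fit on re-analyzed animals alone), among them ARNTL with PER2, PER3, CRY1 and DBP, and 9 of the 10 pairs among PER2, PER3, DBP, NR1D1 and NR1D2.

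**Figure D3:**
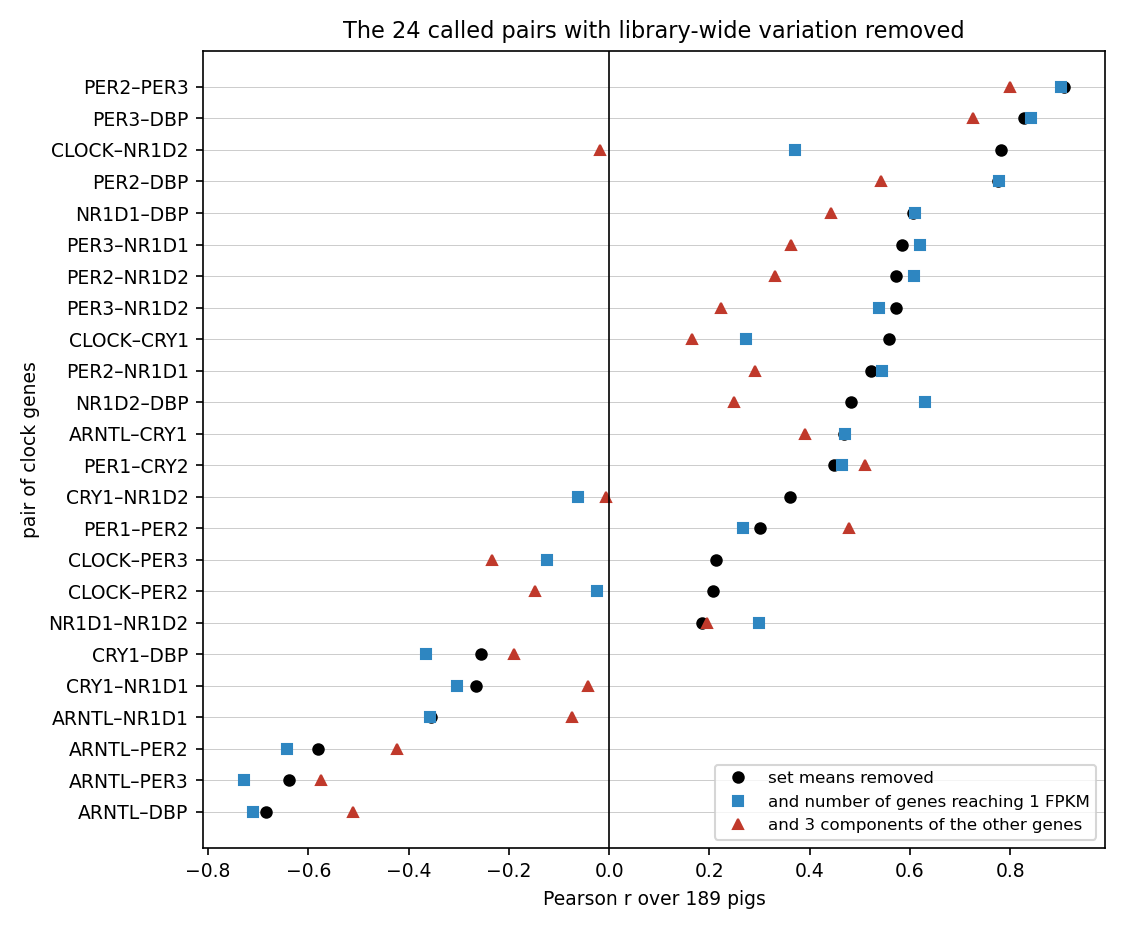
Pearson r of the 24 pairs with set means removed (black circles), with the number of genes reaching 1 FPKM also removed (blue squares) and with 3 components of the other genes also removed (red triangles). CLOCK with NR1D2 lies at 0.78, 0.37 and -0.02, while PER2 with PER3 lies at 0.91, 0.90 and 0.80.

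PER1 and CRY2 were correlated with each other at r = 0.45 (rho 0.42, permutation p 1e-05), and CRY2 ranked 10 of 10716 genes by r with PER1. PER1 with PER2 had r = 0.30 (rho 0.28, permutation p 3e-05), the only other pair of PER1 that passed limma. In the re-analyzed animals PER1 and CRY2 had r = 0.87 (n = 21), and 0.82 without library 148, which was high in both and was left out after its values were seen. In the unmarked animals with IMF it was 0.42, and in the 25 without IMF 0.23. With 3 components of the other genes taken out, r was 0.51 for PER1 with CRY2, 0.48 for PER1 with PER2 and 0.33 for PER1 with PER3. For CRY2 it was then 0.46 with PER2 and 0.30 with PER3, against 0.16 and 0.04 without that correction.

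**Figure D4:**
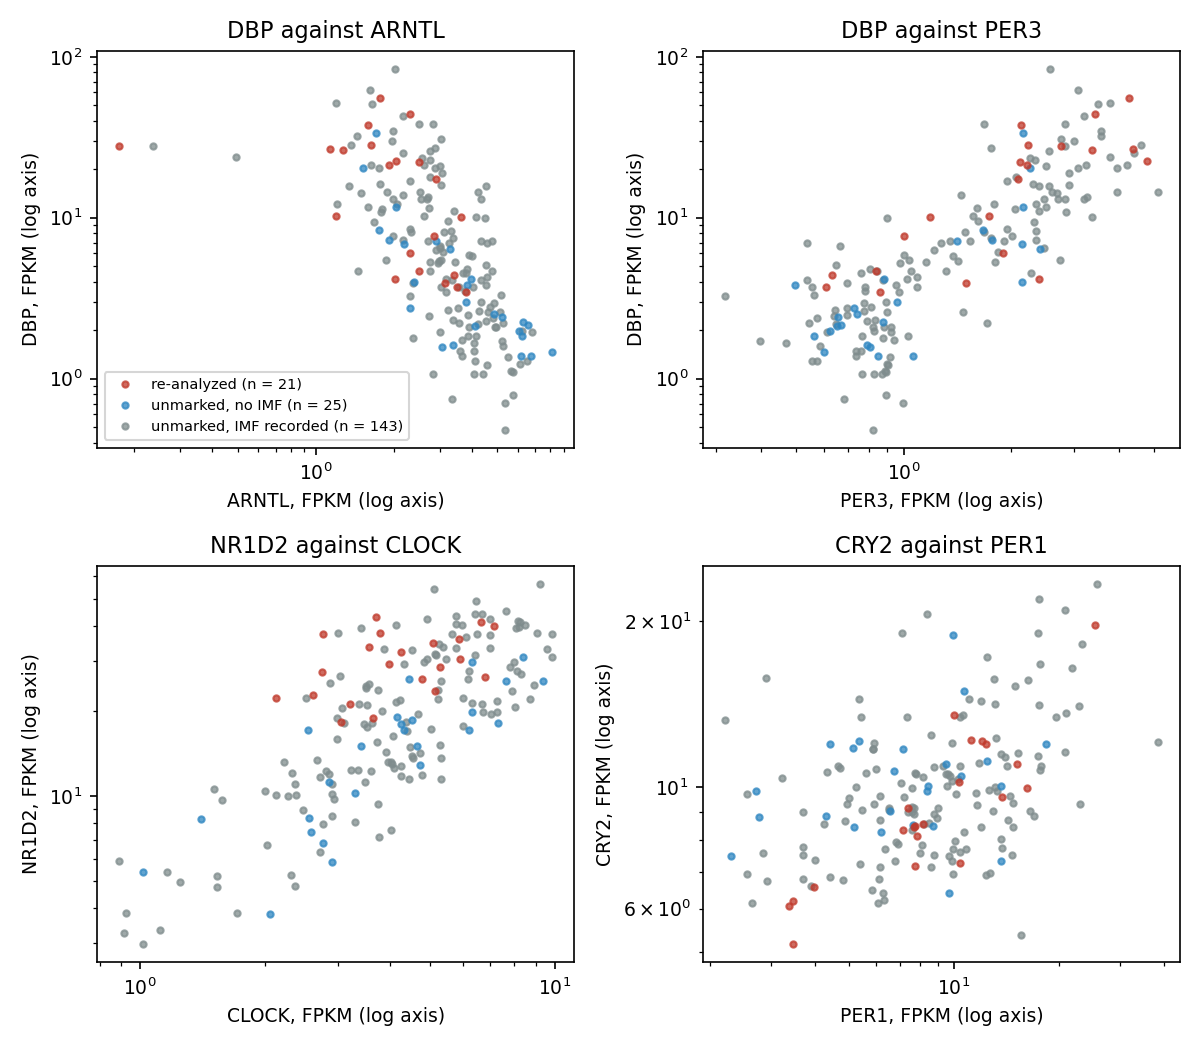
Selected pairs of members, with 1 point per animal and FPKM on log axes; colours are the sets of libraries. DBP is low where ARNTL is high and high where PER3 is high, NR1D2 is high where CLOCK is high, and CRY2 is scattered against PER1.

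Other genes of the clock were tested on ARNTL and on DBP. Of 16 tested genes of the list, 3 were higher and 3 lower with ARNTL (23.3% and 9.36% of all genes), and 9 were higher and 3 lower with DBP (29.9% and 22.2% of all genes). TEF, a PAR bZIP factor related to DBP, had -0.96 ± 0.11 on ARNTL (SE, limma adjusted p 4.06e-14) and 0.47 ± 0.03 on DBP (adjusted p 1.21e-30). NFIL3, the repressor that competes with PAR bZIP factors for their sites, had 0.79 ± 0.08 on ARNTL (adjusted p 3.83e-17) and -0.28 ± 0.03 on DBP. CIPC, an inhibitor of CLOCK, had 0.79 ± 0.09 on ARNTL (adjusted p 5.36e-14) and -0.39 ± 0.03 on DBP (adjusted p 5.89e-31). With 3 components of the other genes as covariates CIPC had 0.17 (limma adjusted p 0.107) and -0.11 (adjusted p 0.0508) and passed on neither.

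NPAS2, a paralog of CLOCK, was higher with ARNTL (0.19 ± 0.05) and lower with DBP (-0.09 ± 0.02). BHLHE41, a repressor of the activator, was lower with ARNTL (-0.49 ± 0.08) and higher with DBP (0.29 ± 0.03). USP2, a deubiquitinase of clock proteins, was lower with ARNTL (-0.15 ± 0.05) and higher with DBP (0.07 ± 0.02). Also higher with DBP by limma were HLF (0.17 ± 0.02), PRKAA2 (0.18 ± 0.03), CIART (0.08 ± 0.02), CSNK1E (0.10 ± 0.02) and CSNK1D (0.04 ± 0.01). On ARNTL these genes did not pass, and RORA, BTRC and BHLHE40 passed on neither gene. With 3 components as covariates HLF (0.02), PRKAA2 (0.03), CIART (0.07) and NPAS2 (-0.08) no longer passed on DBP, and NPAS2 (0.12) and USP2 (-0.11) no longer passed on ARNTL. PRKAA2 then passed on ARNTL (-0.13), and RORA (-0.15) and BHLHE40 (0.13) on DBP, while TEF, NFIL3 and BHLHE41 passed on both. After quantile normalization the counts on ARNTL were 4 higher and 7 lower. On PER1 5 of the 16 were higher and none lower (18% and 3.55% of all genes). RORA, an activator of ARNTL transcription, had 0.35 ± 0.09 on PER1 and USP2 0.29 ± 0.03.

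**Figure D5:**
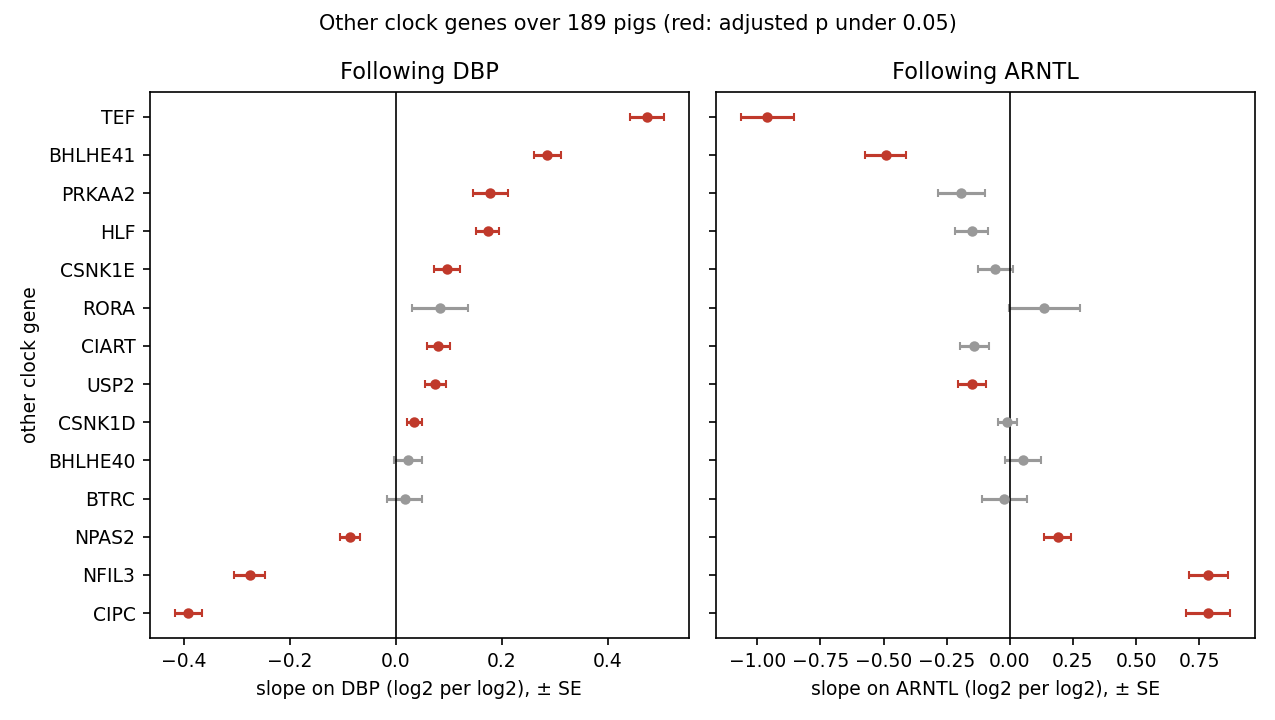
Slopes of other clock genes on DBP (left) and on ARNTL (right), in log2 units per log2 unit with SE bars over 189 animals; red points passed limma at an adjusted p under 0.05. TEF is highest on DBP (0.47) and lowest on ARNTL (-0.96), and CIPC and NFIL3 lie at the opposite ends.

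Among all genes outside the members, those most like ARNTL included TMEM140 (r = 0.70), LONRF3 (0.68), TBX15 (0.65, a T-box transcription factor), SLC43A2 (0.63, an amino acid transporter), CCDC6 (0.62), TSC22D3 (0.61, the glucocorticoid-induced leucine zipper) and CTSV (0.61). The most negative were TEF (-0.55), SRPK3 (-0.53), CYTH2 (-0.51), the unnamed gene ENSSSCG00000037922 (-0.51), CA11 (-0.51, which overlaps DBP), ADA (-0.49), IL34 (-0.48) and PCBP1 (-0.48). All r are over 189 animals with set means removed.

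With DBP the highest were GRIP2 (r = 0.79), TLE1 (0.76, a transcriptional corepressor), NFE2L3 (0.74), LSMEM1 (0.74), CYTH2 (0.74), TEF (0.73), TRIM7 (0.72) and FAM184B (0.72). The most negative were PLAC9 (-0.80), FNTB (-0.78, the farnesyltransferase beta subunit), ABHD2 (-0.78), UBAP1 (-0.78), CTSV (-0.78), DAPK3 (-0.77), TMEM140 (-0.76) and C16orf70 (-0.76). TMEM140, CTSV, TEF and CYTH2 thus stand in the lists of both genes with opposite signs.

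Outside the members, TEF was also the gene most like PER2 (r = 0.79), PER3 (0.82) and NR1D1 (0.64). PRELID2 and PGM3 came next for PER2 (0.74 and 0.73) and for PER3 (0.80 and 0.77), and TSPAN4 (0.62) and GRID2IP (0.59) for NR1D1. For PER1 they were USP2 (0.55), CEBPD (0.51) and TNS2 (0.51), and for CRY2 MLIP (0.56), DHX8 (0.56) and ABHD4 (0.55). For CRY1 they were CCDC117 (0.66), BRAP (0.66) and ATP6V0A2 (0.65). For CLOCK they were PTPN4 (0.91), HCFC2 (0.90) and MED13 (0.90), and for NR1D2 SOS2 (0.94), BMT2 (0.94) and ANKMY2 (0.93). CLOCK and NR1D2 followed the number of genes reaching 1 FPKM (r = 0.85 and 0.77), with which these other genes were not compared.

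Genes of the glucocorticoid response were mostly higher with ARNTL and lower with DBP. Of 14 tested, 12 were higher and 1 lower with ARNTL (median slope 0.75, against 0.04 over all genes). Over all genes 23.3% were higher and 9.36% lower. With DBP 2 were higher and 11 lower (median -0.32, against 0.01), where 29.9% of all genes were higher and 22.2% lower. FKBP5, a chaperone of the glucocorticoid receptor, had 1.07 ± 0.13 on ARNTL (SE, limma adjusted p 1.13e-11) and -0.42 ± 0.05 on DBP. KLF9 had 0.94 ± 0.10 on ARNTL (adjusted p 1.39e-14), and TRIM63, a ubiquitin ligase of muscle protein breakdown, -0.45 ± 0.03 on DBP (adjusted p 4.26e-28). The 1 gene lower with ARNTL was SGK1 (-0.20 ± 0.08), named after its value was seen. On PER1 8 were higher and 1 lower (18% and 3.55% of all genes), with CEBPD at 0.76 ± 0.09 and ZBTB16 at 0.50 ± 0.08. With 3 components of the other genes taken out, 8 were higher with ARNTL and 9 lower with DBP, against 695 and 538 of all genes. In the 21 re-analyzed animals alone none passed on ARNTL, where 0 of 10716 genes did. There 12 of 14 slopes on ARNTL were above 0 (median 0.43). With DBP 4 were lower in these animals, where 29 of all genes were lower.

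Genes that the muscle clock or fasting is known to time were mixed. Of 18 tested, 6 were higher and 1 lower with ARNTL (median slope 0.13), where 23.3% of all genes were higher and 9.36% lower. With DBP 6 were higher and 9 lower (median -0.05), where 29.9% were higher and 22.2% lower. With 3 components taken out 5 were higher and 3 lower with DBP, against 3036 and 538 of all genes. UCP3, a mitochondrial carrier of fuel use, had 1.17 ± 0.14 on ARNTL (SE, limma adjusted p 1.73e-12) and -0.54 ± 0.05 on DBP. FBXO32, a ubiquitin ligase of muscle atrophy, had 1.09 ± 0.12 on ARNTL (adjusted p 4.04e-14), and LPIN1 -0.38 ± 0.03 on DBP (adjusted p 7.92e-26). On PER1 6 were higher and none lower (18% and 3.55% of all genes). PDK4, a brake on glucose oxidation, had 0.99 ± 0.20 on PER1 and KLF15 0.31 ± 0.05. After quantile normalization 2 were higher on PER1, and 2 after a shift to equal medians (576 and 550 of all genes). With the title code as a factor 2 were higher (185 of all genes), and with 3 components taken out 9 (1635 of all genes).

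Heat and cold response genes were higher with ARNTL in 7 of 11 (23.3% of all genes) and lower with DBP in 8 of 11 (22.2% of all genes), with HSPH1 at 1.12 ± 0.15 and -0.56 ± 0.05 and HSPB1 at 0.65 ± 0.15 and -0.34 ± 0.05. After quantile normalization 4 were higher and 2 lower with ARNTL. The direction did not hold with 3 components of the other genes taken out, where 0 were higher and 1 lower with ARNTL and 7 were higher with DBP. The listed genes were among those the components were taken from, and component 2 itself had r = -0.68 with DBP. Of all 10716 genes, 695 were then higher and 524 lower with ARNTL, and 3036 higher and 538 lower with DBP. Immediate early genes, which stimuli induce within minutes, passed mainly on PER1: 13 of 17 were higher and none lower (median slope 0.26, against 0.04 over all genes, of which 18% were higher, 1934 genes against 380 lower, and 576 against 583 after quantile normalization). ATF3 had 0.44 ± 0.14 and EGR1 0.37 ± 0.10 on PER1. With the title code as a factor none passed (n = 146, median slope 0.14, 16 of 17 slopes above 0). Of all 10716 genes, 185 were higher and 25 lower on PER1 with that factor. After quantile normalization 8 were higher and in the unmarked animals with IMF 5, where 1451 of all genes were higher. In the re-analyzed animals alone none passed, where 1 of all genes did, with 17 of 17 slopes above 0. On ARNTL 5 of 17 were higher (23.3% of all genes), led by ATF3 (0.67 ± 0.21) and NR4A3 (0.49 ± 0.09). On DBP 2 were higher and 7 lower (29.9% and 22.2% of all genes), with ATF3 at -0.47 ± 0.07 and NR4A3 at -0.25 ± 0.03. With 3 components taken out these directions did not hold, with 0 higher and 1 lower on ARNTL and 10 higher on DBP, while 14 were higher on PER1. The counts over all genes are those given above for ARNTL and DBP, and on PER1 1635 were higher and 604 lower.

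Markers of other cell types moved with some members. Summed macrophage markers (4 genes, 3.77 to 65.1 FPKM) had r = -0.40 with DBP and -0.51 with NR1D2, and 0.17 with ARNTL. On DBP 3 of the 4 were lower (22.2% of all genes), CD163 at -0.27 ± 0.04 and C1QA at -0.20 ± 0.04. Summed fast fibre markers had r = -0.59 with CLOCK, -0.53 with NR1D2 and -0.42 with PER1, and -0.13 with DBP. Adipocyte markers had r = -0.24 with DBP and 0.13 with ARNTL, and smooth muscle markers -0.32 and 0.21. The part of these markers in the relations between members was not tested.

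IMF was recorded in 164 animals. Of the 10 members none passed limma on IMF, where 0.084% of all genes (9) did, and 527 genes were below 0.05 before adjustment. The slopes lay between -0.02 for ARNTL and 0.06 for CRY1 (log2 per unit of IMF), and the smallest adjusted p was 0.961. For CRY1 the slope was 0.06 ± 0.03 (SE) and for DBP 0.02 ± 0.09. Adipocyte markers passed in 3 of 5. The IMF slope did not differ between re-analyzed and unmarked animals for any member by limma (0% of all genes called, with 176 below 0.05 before adjustment).

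Within the re-analyzed animals, high was set against low IMF. PER1 ran from 3.37 over a median of 10.4 to 25.3 FPKM in the 10 high animals, and from 3.46 over 7.73 to 16.2 FPKM in the 11 low animals. The groups overlap. DBP ran from 3.68 over 15.8 to 55.5 FPKM at high IMF and from 3.45 over 17.5 to 44.1 FPKM at low IMF, and these overlap too. No member passed limma (differences of -0.10 for DBP to 0.32 for PER1, smallest adjusted p 0.986), where 0.084% of all genes passed.

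With IMF as a linear covariate, the re-analyzed animals differed from the unmarked ones in 5 of 10 members, 3 higher and 2 lower. Over all genes 41.1% passed (18.3% higher and 22.7% lower). The animals were not matched for IMF. NR1D2 averaged 30.1 ± 7.48 FPKM in the re-analyzed (n = 21, 18.3 to 43.0, median 29.2) and 21.6 ± 12.3 FPKM in the unmarked animals with IMF (n = 143, 2.98 to 56.5, median 19.8). DBP averaged 18.5 ± 14.9 FPKM in the re-analyzed (3.45 to 55.5, median 17.5) and 10.6 ± 12.8 FPKM in the unmarked (0.483 to 84.2, median 5.45). Both ranges overlap, with the lowest values in the unmarked animals. The differences were 0.65 ± 0.20 for NR1D2 (log2, SE, limma adjusted p 0.00489) and 0.93 ± 0.31 for DBP (adjusted p 0.00986), and PER2 was higher by 0.37 ± 0.14 (adjusted p 0.0285).

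ARNTL averaged 2.26 ± 0.94 FPKM in the re-analyzed (0.174 to 3.77, median 2.30) and 3.34 ± 1.28 FPKM in the unmarked animals (0.235 to 6.78, median 3.18), a difference of -0.40 ± 0.11 (limma adjusted p 0.00148). NR1D1 averaged 13.5 ± 3.84 FPKM in the re-analyzed (6.19 to 23.4) and 18.4 ± 5.8 FPKM in the unmarked (6.82 to 34.9), a difference of -0.41 ± 0.10 (adjusted p 0.000417). The groups overlap for both genes. PER3 had 0.25 ± 0.13 (adjusted p 0.10), and CLOCK, CRY1, CRY2 and PER1 did not pass.

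Markers of other cells were lower with the mark: 4 of 5 adipocyte, 3 of 4 endothelial, 4 of 4 macrophage, 5 of 5 fibroblast, 2 of 3 smooth muscle and 3 of 3 red blood cell genes. Over all genes 22.7% were lower and 18.3% higher. Of the fibre markers, 1 of 5 slow genes was lower, and of 6 fast genes 1 was higher and 1 lower. Summed macrophage markers lay between 3.77 and 23.9 FPKM in the re-analyzed and between 6.73 and 65.1 FPKM in the unmarked animals with IMF, and fibroblast markers lay between 154 and 900 FPKM in the re-analyzed and between 134 and 1664 FPKM in the unmarked animals with IMF. Their part in the differences was not tested, and the mark and a batch cannot be told apart.

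Animals were also compared by title code. In the 146 animals of 48 codes, none of the 10 members differed between codes by limma's F test, where 1.54% of all genes did. The intraclass correlation, the share of variance between codes, lay between -0.03 for PER3 and 0.13 for NR1D1. The smallest adjusted p was 0.300 for NR1D1.

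Titles beginning with 16 were set against those beginning with 15. NR1D2 averaged 19.2 ± 11.11 FPKM in the 120 animals of titles 16 (2.98 to 45.0, median 17.8) and 26.1 ± 12.0 FPKM in the 69 of titles 15 (5.23 to 56.5, median 25.2), and the ranges overlap. It was lower by limma (-0.45 ± 0.12, adjusted p 0.0149), the only member of 10 to pass where 11.9% of all genes did (1.64% higher and 10.2% lower, 176 and 1097 genes, and 553 higher and 665 lower after quantile normalization). DBP had -0.48 ± 0.19 (adjusted p 0.0713). Beside this, 3 of 4 macrophage markers were higher in titles 16, whose part was not tested. What the first digits stand for is not stated.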

How the data were processed

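Polyadenylated RNA of 189 pig muscles was measured. Per the submitters' processing notes, HISAT2 2.0.5 and StringTie 1.3.3 were used with the build Sscrofa11.1. The deposited table gives 1 value per transcript and animal with no named unit. That the deposited values are FPKM was inferred from StringTie's usual output and from the values. FPKM depend on the few most abundant genes of a library. No read counts are given, so depth is unknown.

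Transcripts were summed per gene, and log2(FPKM + 1) was tested where the mean was at least 0.5 FPKM (10717 genes). Fold changes on this scale understate those of low genes. Each member's level was a covariate in limma 3.58.1 (in R 4.3.3; linear fits moderated by eBayes, trend on, 2-sided, Benjamini-Hochberg over all tested genes, threshold 0.05) with the set of libraries, its own row left out (10716 genes). A pair passed where both of its fits did. Pearson's r and Spearman's rho were permuted 100000 times within sets. The mark was tested with IMF as a covariate, IMF with the mark, and title codes with an F test. Animals were treated as independent unless the title code was a term, since no label says which share a parent, and the labels give 112 and 158 as the number of sows. The fits were tested on simulated data in which each gene was drawn independently. That test therefore does not cover the variation that genes of a library share.

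The text names all 10 members, the other clock genes, the 2 largest slopes of the lists described (SGK1 was added after its value was seen), the 8 highest and 8 lowest r with ARNTL and DBP and the 3 highest with each other member. Members and lists were chosen with earlier results of these data known. Of the 20 other clock genes listed, RORB, FBXL21 and ARNTL2 were not matched by symbol and TIMELESS was below the filter. Some genes that the rule names are not reported here, while counts over lists include all tested genes. No sequences were used.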

Additional observations from a re-analysis of the deposited data

Results flagged for a closer look

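Within the 10 re-analyzed animals of high IMF, library 148 stood apart in 2 members. Its PER1 level was 25.3 FPKM, and the gap to the next animal was 0.525 of the range of the group. Its CRY2 level was 19.7 FPKM, with a gap of 0.557 of the range. The 10 members were examined in this group. For normally distributed values chance gives such a value in about 1 of 20 groups, and FPKM need not be normal. PER1 and CRY2 were correlated in the re-analyzed animals (r = 0.87, n = 21), so that the 2 values are not separate events.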

How the results depend on the processing

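No paired analysis was possible because each animal gave 1 library and the labels give no replicate numbers that the groups share. Of the pairs of members, 7 passed in the same direction and 0 in opposite directions in the 21 re-analyzed animals alone, and 12 passed in opposite directions after quantile normalization and 12 after a shift to equal medians. The slope of CLOCK on ARNTL was -0.062 and -0.065 with these 2 scalings. In the re-analyzed animals alone the slopes on ARNTL were -0.80 for PER2, -0.71 for PER3, 0.16 for CRY1, -0.19 for NR1D1 and -1.50 for DBP, none of which passed with fewer animals, and -0.13 for CRY2. With 3 components NR1D1 had -0.065 and did not pass. NR1D2 passed on ARNTL at -0.66 and -0.65 with the 2 scalings, -0.42 without the set, -0.44 in the unmarked animals with IMF and -0.48 with the number of genes reaching 1 FPKM. The number of genes that followed IMF was 19 with a pseudocount of 0.1, 28 without library 39 and 0 in the unmarked animals alone. High against low IMF gave 5 genes with a pseudocount of 0.1 and 0 to 17 leaving out 1 animal (17 without library 104, 0 without library 14 or 189). Title codes gave 90 genes after quantile normalization, 101 after a shift to equal medians and 23 with the first 6 digits. The cause of these changes was not tested.

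After a shift to equal medians the sign turned for PER1 on CLOCK (-0.0437), PER2 on CLOCK (-0.00035), PER3 on CLOCK (-0.041), DBP on CLOCK (-0.16), CRY1 on PER1 (-0.0153), CRY2 on CRY1 (-0.0421), NR1D2 on NR1D1 (-0.0194), IMF CRY2 (-0.00324), IMF by mark NR1D1 (-0.000772), mark CLOCK (0.00193), high against low IMF PER3 (-0.0393), titles 16 against 15 ARNTL (0.0287), titles 16 against 15 NR1D1 (0.0277). With 3 components of the other genes as covariates the sign turned for PER2 on CLOCK (-0.26), PER3 on CLOCK (-0.32), CRY2 on CLOCK (0.10), NR1D1 on CLOCK (0.0231), NR1D2 on CLOCK (-0.0194), DBP on CLOCK (-0.65), CRY1 on PER1 (-0.0266), NR1D2 on CRY1 (-0.00436), NR1D2 on CRY2 (0.0838), DBP on CRY2 (0.22). With the number of genes reaching 1 FPKM as a covariate, chosen after seeing the data, the sign turned for PER2 on CLOCK (-0.0471), PER3 on CLOCK (-0.21), CRY2 on CLOCK (0.00352), DBP on CLOCK (-0.44), NR1D2 on CRY1 (-0.0837). After quantile normalization the sign turned for PER3 on CLOCK (-0.0571), DBP on CLOCK (-0.13), CRY1 on PER1 (-0.00937), CRY2 on CRY1 (-0.0106), IMF CRY2 (-0.0050), IMF by mark NR1D1 (-0.00561), high against low IMF PER3 (-0.0173), titles 16 against 15 ARNTL (0.0288), titles 16 against 15 NR1D1 (0.00558). In the re-analyzed animals alone the sign turned for CRY2 on CLOCK (0.31), NR1D1 on CLOCK (0.0932), DBP on CLOCK (-0.14), CRY1 on PER2 (0.00987), NR1D2 on CRY2 (0.33), DBP on CRY2 (0.21). With the title code as a factor the sign turned for CRY2 on CRY1 (-0.0219). In the unmarked animals alone the sign turned for IMF CRY2 (-0.0186). With a pseudocount of 0.1 the sign turned for high against low IMF CLOCK (0.0092). Leaving out 1 animal, high against low IMF changed sign for DBP (-0.32 to 0.0761), CLOCK (-0.074 to 0.0643), ARNTL (-0.13 to 0.0865), NR1D2 (-0.11 to 0.00778), PER3 (-0.078 to 0.13). None of these members passed in that comparison. Without library counts of reads, the precision of low genes such as PER2 cannot be given.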
